A study of Mus musculus with 13 samples.

Results

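Mouse mammary tumor organoids grown in collagen I were compared with normal mammary organoids grown in Matrigel, the far corners of a design that crosses 2 tissues with 2 gels. The 6 samples were chosen by their labels, as 3 of each kind among 13 samples read on 14 arrays. The tumor organoids came from MMTV-PyMT mice, in which a viral promoter active in mammary epithelium drives the polyoma middle T antigen. From each mouse aged 12 to 16 weeks the largest tumor was taken, at a stage the labels call poorly differentiated carcinoma. The normal organoids came from the number 3 and 4 mammary glands of FVB mice. Their age was not stated in the labels. Both tissues were digested mechanically and with collagenase and trypsin, and the fragments of epithelium, of many cells each, were parted from single cells by differential centrifugation. The fragments were embedded in Matrigel, a basement membrane extract, or in gels of collagen I from rat tail (3 mg/ml), and grown for 4 days in DMEM/F12 with insulin, transferrin and 2.5 nM FGF2, which all groups received. The tumor collagen I arrays are of mice A, B and C, and the normal Matrigel arrays of mice A, B and D. Letters are shared between the tissues only as names, since normal and tumor animals are different mice. The remaining 2 groups, tumor organoids in Matrigel and normal organoids in collagen I (3 arrays each), make up the opposite diagonal and are used to separate the share of the tissue from that of the gel.

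The normal mammary duct is a bilayer. Luminal cells line the lumen and express simple keratins, some of them sense estrogen and progesterone, and contractile myoepithelial cells with basal keratins surround them on a basement membrane of laminin, collagen IV and nidogen. Collagen I is the main fibrillar collagen of the connective tissue outside that membrane, and carcinoma cells meet it when they leave the duct. Matrix metalloproteinases cut such collagen, integrins bind it, and stiff or fibrous matrix is known to engage the YAP and SRF programs of stretched cells. PyMT carcinomas progress from hormone receptor positive hyperplasia to receptor-poor carcinoma.

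Both tissue and gel differ in this comparison, so a difference is described as that of tumor organoids in collagen I against normal organoids in Matrigel and is attributed to neither. Levels are log2 values of the processed signal minus the array's 75th percentile, so a level of 0 is that percentile. Differences are tumor collagen I minus normal Matrigel in log2 units, ± the standard error from limma, and a gene is called higher or lower where its Benjamini-Hochberg adjusted p is under 0.05. The 75th percentile of the signal was 955.5 ± 246.5 (SD, n = 3) in normal Matrigel and 737.4 ± 65.4 in tumor collagen I, with 66.2 ± 2.81% and 65.0 ± 3.68% of the spots well above background. Arrays of the same group correlated across genes at 0.965 to 0.983 in normal Matrigel and 0.962 to 0.972 in tumor collagen I, and arrays of the 2 groups with each other at 0.911 to 0.955. Among the genes called, normal Matrigel A was the array of its group nearest to the other group for 52.9% and tumor collagen I A for 52.1%, against 23.1% to 24.7% for the other 4 arrays. The 6 arrays lay on 6 different slides, so no slide holds both groups. With slide as a fixed block, reached only through the remaining 2 groups, 3 genes were called by limma (4516 at an unadjusted p under 0.05). The middle T transgene was not analysed here.

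Of 18274 genes tested, 2480 (13.6%) were called by limma, 1271 (6.96%) higher and 1209 (6.62%) lower in tumor organoids in collagen I. The share of higher genes among those called was 51.2%, but 61.6% after normexp background correction and 29.8% when the spike-in probes set the scale, which moved the median difference of all genes from 0.06 to -0.18. The counts of gene lists below stand beside the shares of 6.96% higher and 6.62% lower. The 2 groups did not overlap for 5892 genes (32.2%), and for 2451 of the 2480 genes called. Of the called genes 1822 differed by at least 2-fold, 835 by at least 4-fold and 415 by at least 8-fold. The count of calls depended on single arrays. It was 1396 without normal Matrigel B, 1403 without normal Matrigel D and 1597 without tumor collagen I B.

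Among genes well above background on all 6 arrays, Irg1 and Mmp13 had the largest differences toward the tumor organoids. Irg1, which makes itaconate from a citric acid cycle intermediate in activated macrophages, was at -4.61, -5.05 and -5.45 in normal Matrigel A, B and D and at 0.61, 1.14 and 1.47 in tumor collagen I A, B and C. The groups lay far apart, by 6.11 ± 0.33 or 69.1-fold (limma adjusted p = 4.27e-06). Mmp13, the interstitial collagenase that cleaves fibrillar collagen, was at -2.25, -3.69 and -2.36 in normal Matrigel and at 2.16, 2.64 and 5.03 in tumor collagen I. The difference was 6.04 ± 0.70 (65.9-fold, limma adjusted p = 0.000297), with tumor collagen I C above the other tumor arrays. Msln, the surface protein mesothelin, was at -5.04 to -5.30 in normal Matrigel and at -0.96, 0.14 and 2.16 in tumor collagen I, a 48.8-fold difference. Sftpd, a collectin that binds microbial sugars, was at -4.73 to -5.05 and at 0.21, 1.13 and -0.02 (39.3-fold). Foxj1, the master factor of motile cilia, was at -4.41, -3.70 and -3.80 and at -0.48, 0.47 and -0.28 (14.7-fold, limma adjusted p = 5.22e-05). Bst1, an ectoenzyme that makes cyclic ADP-ribose, differed by 4.41 ± 0.90.

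Several further genes were highest in tumor collagen I C. The kallikrein proteases Klk7 and Klk8, which shed cornified cells, differed by 5.27 ± 1.46 and 4.07 ± 0.80 (limma adjusted p = 0.037 and 0.00765). Klk8 was at 0.99, -1.10 and -2.54 in normal Matrigel and at 2.36, 2.77 and 4.43 in tumor collagen I, and kept its call with each array left out. Klk7 was at -0.37, -0.91 and 4.55 in tumor collagen I A, B and C, so mouse C alone stood above 0. Its call was lost for 7 of the 12 arrays left out in turn, with limma adjusted p from 0.0543 to 0.109. These were each normal Matrigel array, each normal collagen I array and tumor collagen I C. Crct1, a gene of the cornified envelope cluster, was at 0.80, -0.40 and 6.21 against -5.01, -6.64 and -8.30, and only 1 normal Matrigel array measured it above background. The keratin Krt16 was at 3.64, 4.74 and 8.08 against 1.52, 1.09 and 0.36 (4.50 ± 1.09). Without normal Matrigel B, normal Matrigel D or tumor collagen I C, the limma adjusted p of Krt16 was 0.0593, 0.0754 and 0.0501. Cst6, an inhibitor of cysteine proteases in skin, was at 1.27, 1.22 and 5.52 against -1.24, -1.30 and -1.79 (17.3-fold), and was not called without normal Matrigel B or D (limma adjusted p = 0.0661 and 0.0803). The keratinization list, given further on, had members in both directions.

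Some genes were well above background on all tumor collagen I arrays and on none, or 1, of the normal Matrigel arrays. S100a9, a calcium-binding alarmin of neutrophils and stressed epithelium, was well above background on no normal Matrigel array and was at least 57.7-fold higher in tumor collagen I. Its tumor levels of -1.36, -4.15 and 4.67 were spread widely, and its call (limma adjusted p = 0.0436) was lost for 9 of the 12 arrays left out, with adjusted p from 0.0573 to 0.14. These were all arrays except tumor collagen I B and tumor Matrigel B and C. Lhx5, a LIM homeobox factor of the forebrain, was at least 55.5-fold higher (limma adjusted p = 1.2e-05). Slc6a4, the serotonin transporter, was at least 35.0-fold higher (limma adjusted p = 5.33e-06). Of these 3 genes Slc6a4 was well above background on no normal collagen I array, S100a9 on 2 and Lhx5 on 3. Foxa2, a factor of foregut and liver epithelium, was at 0.18, 1.04 and 0.32 in tumor collagen I and above background on 1 of 3 normal Matrigel arrays. Orm1, an acute-phase glycoprotein, and Kng1, the kininogen of plasma, were at -2.51 to -1.79 and -4.31 to -3.72 in tumor collagen I and above background on none of the normal Matrigel arrays. Foxa2, Orm1 and Kng1 were well above background on all 3 normal collagen I arrays.

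The lowest genes were of several kinds. Dmbt1, a secreted scavenger protein of mucosal epithelium, was at 3.23, 3.72 and 2.15 in normal Matrigel and at -3.71, -5.31 and -5.72 in tumor collagen I. This was the widest difference among genes well above background on all 6 arrays, at -7.95 ± 0.57 or 247-fold lower (limma adjusted p = 1.43e-05). Ptn, the heparin-binding growth factor pleiotrophin, was at 4.41, 2.81 and 1.63 and at -2.52, -3.50 and -5.36 (107-fold lower). Mest, an imprinted gene active in growing embryonic tissue, was at 3.03, 2.97 and 2.52 and at -3.67, -3.51 and -3.55, with less than 0.6 between mice of a group. Its difference was -6.42 ± 0.34 (limma adjusted p = 4.27e-06). Nsg1, a protein of neuronal endosomes, was 55.3-fold lower. Cd93, Ramp2, Robo4 and Cd34, which mark endothelial or progenitor cells, were 57.8-fold, 48.7-fold, 43.0-fold and 29.8-fold lower. Robo4 was at 1.60, 1.63 and 2.07 in normal Matrigel and at -3.64, -3.49 and -3.86 in tumor collagen I. Col14a1, a collagen that binds to fibrils, was at 1.25, 1.57 and 1.41 in normal Matrigel and well above background on no tumor collagen I array, at least 158-fold lower (limma adjusted p = 5.13e-09). Ido1, which degrades tryptophan, and Asic2, an acid-gated sodium channel, were at least 36.0-fold and 36.6-fold lower.

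**Figure D1:**
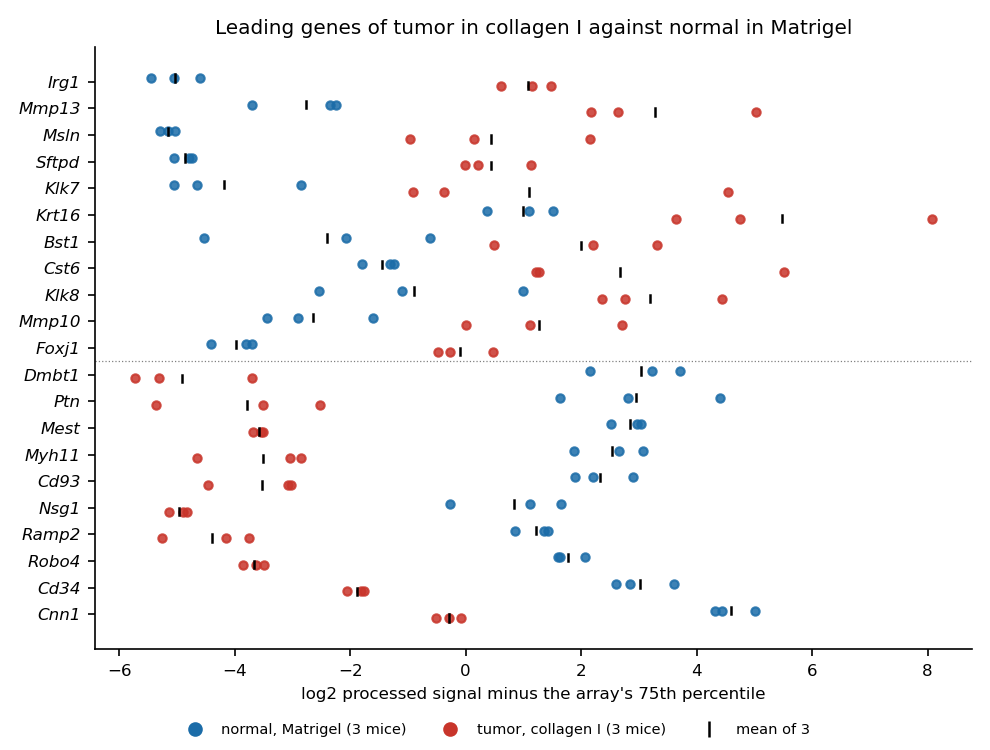
Log2 level (processed signal minus the array's 75th percentile, horizontal axis) of 11 genes higher and 10 genes lower in tumor organoids in collagen I. Points are the 3 mice of each group and vertical bars their means. The rule that chose these genes kept only called genes whose 3 tumor collagen I and 3 normal Matrigel arrays do not overlap. For Klk7, Krt16 and Cst6 mouse C lies far above the other tumor mice.

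Among luminal markers the keratins Krt8 and Krt18 overlapped between the groups and were not called, Krt7 was higher, and 7 of 9 hormone-sensing genes were lower in the tumor organoids. Krt8 and Krt18, the simple keratin pair of luminal cells, were at 7.78 to 8.31 on the normal Matrigel arrays and at 7.87 to 8.38 on the tumor collagen I arrays. Their ranges overlapped, and the differences were 0.14 ± 0.23 and 0.15 ± 0.19 (limma adjusted p = 0.742 and 0.654). E-cadherin (Cdh1), the adhesion molecule that holds epithelial cells together, was at 1.54, 1.74 and 1.36 and at 0.89, 2.42 and 1.29 (-0.01 ± 0.46, limma adjusted p = 0.988). Of 17 luminal markers tested 4 were higher and 1 was lower, against 6.96% and 6.62% of all genes. Their median difference was 0.27 against 0.06 for all genes. Krt7, another simple keratin, was at 5.67, 5.02 and 4.26 and at 6.43, 7.32 and 7.70 (4.48-fold higher, limma adjusted p = 0.00524). The surface protein Prom1 was 2.29-fold and the epithelial factor Ehf 1.82-fold higher (limma adjusted p = 0.00252 and 0.0345). The count of higher luminal markers was 2 in place of 4 without normal Matrigel B or D, tumor collagen I B or any one normal collagen I array. Ehf lost its call in each of these cases and without tumor collagen I A.

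Of 9 hormone-sensing markers tested, 7 were lower and none was higher, with a median of -2.005. At an unadjusted p under 0.05 there were 8. Tbx3, a factor of hormone-responsive luminal cells, was at 2.09, 1.83 and 0.92 in normal Matrigel and at -3.29, -3.88 and -2.43 in tumor collagen I (28.2-fold lower, limma adjusted p = 3.1e-05). The progesterone receptor (Pgr) and the estrogen target Greb1 were well above background on no tumor collagen I array, at least 3.93-fold and 11.7-fold lower. The estrogen receptor Esr1 was still measured, at -3.12, -3.57 and -3.62 against -1.42, -1.61 and -2.63 (2.93-fold lower, limma adjusted p = 0.00965). Foxa1, which opens chromatin for that receptor, was at -0.64, -0.42 and -1.17 and at -2.73, -3.59 and -6.54 (11.7-fold lower, limma adjusted p = 0.0114), with 2 tumor arrays above background. The count of lower markers stayed between 5 and 7 with each array left out, but was 3 after normexp background correction.

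The myoepithelial contractile genes and the basal keratins Krt5 and Krt14 parted. Of 13 basal and myoepithelial markers, 5 were lower and 1 was higher (median -0.65), the latter not called without normal Matrigel D or tumor collagen I B or C. The median was -1.03 without normal Matrigel D. Myh11, the smooth muscle myosin heavy chain, was at 1.88, 2.65 and 3.07 and at -3.03, -4.65 and -2.85 (66.0-fold lower, limma adjusted p = 1.9e-05). Calponin (Cnn1) was at 4.45, 4.33 and 5.02 and at -0.28, -0.07 and -0.52 (29.6-fold lower, limma adjusted p = 5.33e-06). The myosin kinase Mylk was 20.0-fold lower and the oxytocin receptor Oxtr, which triggers milk ejection, 5.98-fold lower. Krt5 and Krt14 did not follow, while Krt15, listed with the keratinization genes, was 6.44-fold lower (limma adjusted p = 0.0119). Krt5 was at 8.18, 7.42 and 5.47 in normal Matrigel and at 6.08, 6.89 and 7.34 in tumor collagen I (-0.26 ± 0.63, limma adjusted p = 0.833). Krt14 was at 7.43, 6.63 and 4.45 and at 7.28, 7.63 and 8.75 (1.72 ± 0.75, limma adjusted p = 0.16). Trp63, the master factor of basal cells, was at 1.96, 1.83 and 1.31 and at 2.29, 2.57 and 3.33, without overlap but not past the threshold (limma adjusted p = 0.0552). A dimmer Trp63 probe was called higher (1.55 ± 0.41, limma adjusted p = 0.0314) and another was at 2.31 ± 0.69 (limma adjusted p = 0.0506), and Trp63 passed under 9 other settings, so its side of the threshold is uncertain.

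Smooth muscle actin (Acta2) was read differently by its 4 probes. The brightest, which stood for the gene, was at 4.32, 4.32 and 4.29 in normal Matrigel and at 4.02, 4.36 and 3.99 in tumor collagen I (-0.18 ± 0.17, limma adjusted p = 0.532). The other 3 probes were called lower, by -4.33 ± 0.37, -1.74 ± 0.33 and -4.81 ± 0.41 (limma adjusted p = 3.79e-05, 0.00741 and 3.75e-05). On chromosome 19 of mouse build mm7, minus strand, those 3 lie between positions 33941939 and 33942862 per the file headers. The brightest probe is annotated to 33949738 to 33952992, a span longer than a probe. Acta2 is thus reported as uncertain.

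Markers of the cells that surround the epithelium were lower in the tumor organoids, except those of leukocytes. Of 11 endothelial markers 9 were lower and none was higher (median -4.53). Cdh5, the cadherin of vessel walls, was at 0.53, 0.45 and 1.00 in normal Matrigel and at -5.42, -7.15 and -6.21 in tumor collagen I (121-fold lower, limma adjusted p = 5.04e-05). Only 1 of the 3 tumor arrays measured it above background. The junction protein Cldn5 was 104-fold and the VEGF receptor Kdr 23.1-fold lower, and the receptor Tie1 at least 25.3-fold lower. Cldn5 was well above background on 2 of the 3 tumor arrays. Of the endothelial markers 9 were called lower with each of the 12 arrays left out in turn, and 7 after normexp correction. In normal Matrigel 10 of the 11 markers were well above background on every array, and in tumor collagen I 5 were. In bulk organoids fewer cells of a type and less RNA per cell cannot be told apart.

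Of 13 fibroblast and pericyte markers 6 were lower and none higher (median -1.77). The pericyte gene Rgs5 was at -0.61, -0.75 and 0.16 and at -4.58, -5.48 and -4.24 (20.7-fold lower, limma adjusted p = 0.0004), with 2 tumor arrays above background. Pdgfrb, the receptor of pericytes and fibroblasts, was 6.11-fold lower. Normal Matrigel D carried the most of these markers. Its mean over the list was 1.51, against -0.14 and -0.35 for A and B and -2.24 to -1.29 for the tumor arrays. The collagen gene Col3a1 was at 1.04, 1.33 and 4.14 in normal Matrigel and at -0.86, -2.04 and -0.83 in tumor collagen I (10.7-fold lower, limma adjusted p = 0.0115). Without tumor collagen I B the list count was 3 in place of 6. Of 5 adipocyte markers 2 were lower (median -3.0, or -1.45 without normal Matrigel D), and with single arrays left out 1 to 3 were. Fabp4, a fatty acid carrier of fat cells and capillaries, was at 4.35, 3.97 and 5.58 and at -0.33, -0.85 and 0.57 (28.6-fold lower, limma adjusted p = 6.98e-05). Plin1, the coat protein of the fat droplet, was at -4.84, -2.73 and 0.42, again highest in mouse D, and at -5.86, -5.68 and -8.11, with 1 tumor array above background. Its call (limma adjusted p = 0.0362) was lost without normal Matrigel B or D, tumor collagen I B or C, normal collagen I B or tumor Matrigel A. None of 12 leukocyte markers was called by limma (2 at an unadjusted p under 0.05, median 0.31, or 0.14 and 0.51 without tumor collagen I B and C). Lyz2, the lysozyme of macrophages, was at 3.91, 0.95 and 4.76 and at 2.86, 2.46 and 1.21, and the coreceptor Cd14 at 4.85 to 5.10 and at 4.82 to 5.93.

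**Figure D2:**
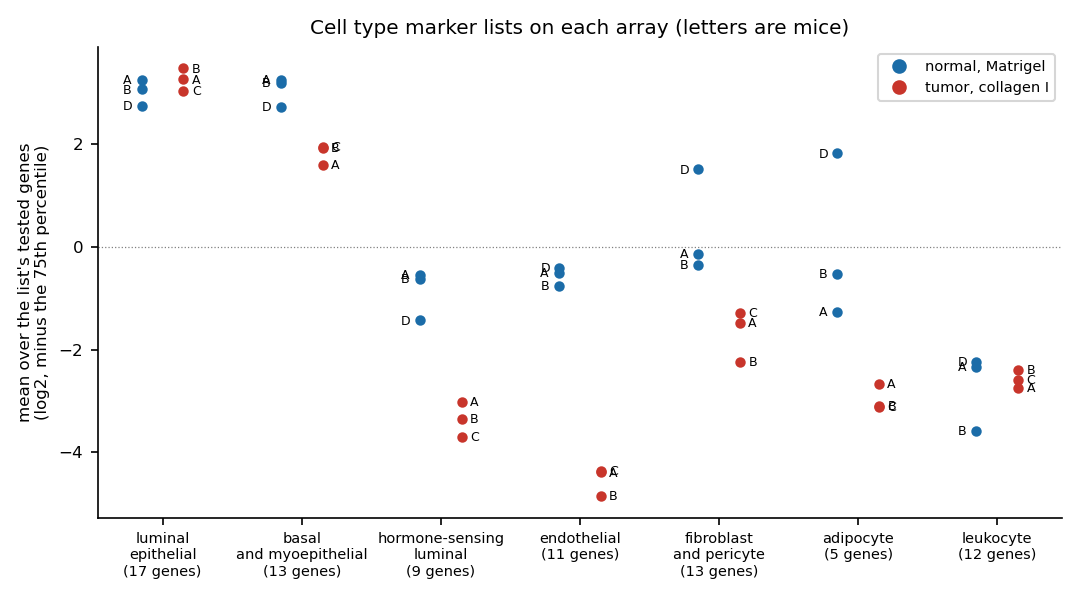
Mean log2 level over the tested genes of 7 cell type marker lists (horizontal axis) on each of the 6 arrays, with the mouse letter beside each point. The luminal and leukocyte lists overlap between the groups, the endothelial list lies between -0.76 and -0.41 in normal Matrigel and between -4.86 and -4.37 in tumor collagen I, and normal Matrigel D stands highest in the fibroblast and adipocyte lists.

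Genes of mesenchymal transition were lower in tumor collagen I or did not pass. Of 12 transition factors and mesenchymal markers 4 were lower and none was higher (median -0.72), and 1 was lower after normexp correction. Zeb1, a repressor of E-cadherin, was at -1.86, -1.57 and -0.64 in normal Matrigel and at -4.91, -4.03 and -4.35 in tumor collagen I (8.41-fold lower, limma adjusted p = 0.000925). Its relative Zeb2 was 7.49-fold and N-cadherin (Cdh2) 7.89-fold lower (limma adjusted p = 0.0057 and 0.00254). Each was well above background on 2 of the 3 tumor arrays. Under other settings their log2 differences ranged from -3.296 to -1.057 and from -3.359 to -0.989. Vimentin (Vim), the intermediate filament of mesenchymal cells, was at 5.70, 5.07 and 5.14 and at 3.38, 4.10 and 2.72 (3.75-fold lower, limma adjusted p = 0.0425). Its call was lost for 9 of the 12 arrays left out, with adjusted p from 0.0569 to 0.139. Leaving out tumor collagen I B or tumor Matrigel B or C kept it. The transition factors Snai1, Snai2 and Twist1 were at -0.27 ± 0.37, 0.33 ± 0.30 and 0.39 ± 0.84 (limma adjusted p = 0.677, 0.522 and 0.809), and the 2 groups overlapped for each. Endothelial and fibroblast markers were lower in the same arrays, with medians of -4.53 and -1.77 and calls for 9 of 11 and 6 of 13. Their part in the result was not tested.

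More interstitial matrix genes were lower than higher in the tumor organoids. Of 23 tested 9 were lower, 1 was higher and 13 did not pass (median -1.503, or -0.90 without normal Matrigel D). Fibrillin (Fbn1), which builds elastic microfibrils, was at -0.97, -0.64 and 0.11 and at -3.93, -4.70 and -3.83 (12.6-fold lower, limma adjusted p = 0.000251). The collagen VI chains Col6a1 and Col6a2 were 12.3-fold and 7.28-fold lower, and the proteoglycan Bgn 6.22-fold lower. The collagen I chains themselves were at 1.51, 1.60 and 4.06 for Col1a1 in normal Matrigel and at 0.45, 0.34 and 1.05 in tumor collagen I (-1.77 ± 0.61, limma adjusted p = 0.0791). Col1a2 was at 3.17, 3.23 and 5.86 and at 1.71, 0.98 and 2.09 (5.62-fold lower, limma adjusted p = 0.0269, or 0.0898 without tumor collagen I B). Normal Matrigel D was the highest array for both chains, as it was for the fibroblast markers, and the part of those cells in the matrix genes was not tested.

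Basement membrane genes were called in both directions. Of 21 tested 3 were lower and 1 was higher, against 6.62% and 6.96% of all genes. The median was -0.09, and 11 were at an unadjusted p under 0.05 by limma. Lama1, the laminin chain that is abundant in Matrigel, was at -0.70, -0.65 and -0.74 in normal Matrigel and at -4.81, -5.20 and -6.12 in tumor collagen I (25.7-fold lower, limma adjusted p = 8.93e-05), with 2 tumor arrays above background. The nidogen Nid2, which links laminin to collagen IV, was at -0.62, -0.62 and -0.20 and at -5.66, -7.63 and -5.97 (61.3-fold lower, limma adjusted p = 0.000185), with 1 tumor array above background. The laminin chain Lamb2 was 1.53-fold lower and Col18a1, the source of endostatin, 2.01-fold higher (limma adjusted p = 0.0398 and 0.0367). The call of Lamb2 was lost without any one array of normal Matrigel, normal collagen I or tumor collagen I. That of Col18a1 was lost without normal Matrigel B or D, tumor collagen I B or C or any normal collagen I array. The count of higher members was 0 in those cases, 2 without normal Matrigel A and 3 without tumor collagen I A.

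Matrix proteases and their inhibitors were the list of matrix genes that stood higher. Of 27 tested 11 were higher and 1 was lower (median 0.88, or 0.55 without tumor collagen I B), against 6.96% and 6.62% of all genes. Mmp13 has been described above. Mmp10, stromelysin 2, which activates procollagenases, was at -2.90, -3.43 and -1.61 in normal Matrigel and at 0.01, 1.11 and 2.70 in tumor collagen I (15.1-fold higher, limma adjusted p = 0.00342). Adamts5, which cuts aggrecan and versican, was at -2.26, -1.65 and -1.31 and at 0.39, 0.10 and -0.37 (3.42-fold higher, limma adjusted p = 0.00483). The lysosomal protease Ctsl was 1.90-fold higher (limma adjusted p = 0.0178, or 0.072 without normal Matrigel B). Mmp14, the membrane-anchored collagenase known for tumor cell invasion, was at 4.99, 4.50 and 4.65 and at 4.67, 4.73 and 4.79, with overlapping groups and a difference of 0.02 ± 0.22 (limma adjusted p = 0.961). The count of higher proteases was 4 without normal Matrigel B, 6 without D, 5 without tumor collagen I B and 6 without C. It was 5 under spike-in scaling and 6 after normexp correction.

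The promoters of the 2 leading metalloproteinases are shown because each holds, close to its start, the letters TGANTCA bound by AP-1, the Fos and Jun dimer long known to drive these genes. The 250 bases before the start are from RefSeq in build GRCm38.p6, 5′ to 3′ on the gene's strand, with matches in capitals. That of Mmp13 is chr9:7272264-7272513 on the plus strand with a match at base -35, and that of Mmp10 is chr9:7502092-7502341 on the plus strand with a match at -63.
Mmp13: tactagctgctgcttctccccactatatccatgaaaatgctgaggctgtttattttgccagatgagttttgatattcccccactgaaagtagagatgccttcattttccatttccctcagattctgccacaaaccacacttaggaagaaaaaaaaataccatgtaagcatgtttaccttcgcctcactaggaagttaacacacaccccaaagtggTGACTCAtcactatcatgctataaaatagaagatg
Mmp10: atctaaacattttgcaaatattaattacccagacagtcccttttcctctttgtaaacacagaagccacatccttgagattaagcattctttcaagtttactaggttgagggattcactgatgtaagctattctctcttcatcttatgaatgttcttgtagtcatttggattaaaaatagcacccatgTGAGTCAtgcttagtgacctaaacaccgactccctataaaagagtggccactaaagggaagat
On either strand the letters occur in 6.75% of the 32851 promoters of that length and in 4.81% of the 10883 of genes tested. They occur in 5.88% of the 817 promoters matched to a called higher gene and in 6.52% of the 736 of a called lower gene. Among the proteases 16 genes matched a promoter and 5 of them held the letters. A match is a description of the sequence. Of the AP-1 partners, Fos was at -0.60, -0.82 and -1.27 in normal Matrigel and at -0.03, 0.79 and 1.33 in tumor collagen I (3.01-fold higher, limma adjusted p = 0.0127, or 0.054 without normal Matrigel D).

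**Figure D3:**
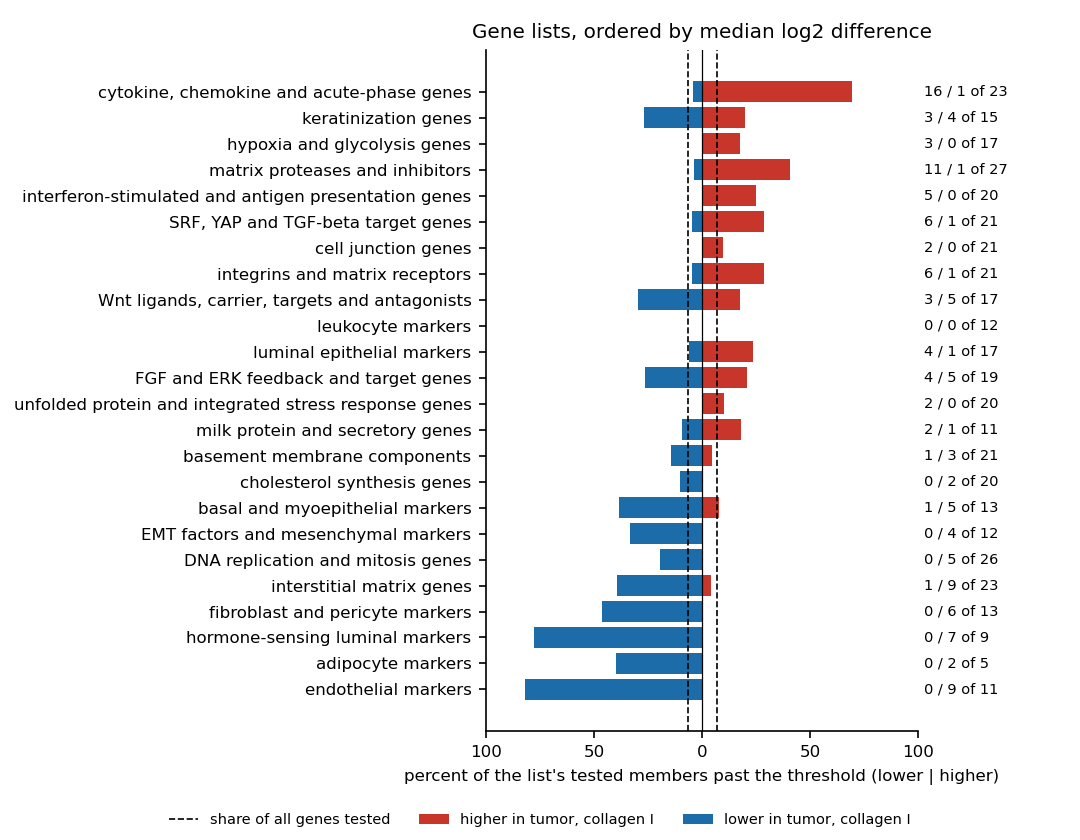
Percent of the tested members of 24 gene lists called lower (left, blue) or higher (right, red) in tumor organoids in collagen I, with the counts at the right and lists ordered by their median difference. The broken lines mark the 6.62% and 6.96% of all genes tested. The endothelial, hormone-sensing and cytokine lists reach farthest beyond them.

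Among integrins and matrix receptors 6 of 21 were higher and 1 was lower (median 0.47), against 6.96% and 6.62% of all genes. Itgb6, the epithelial subunit of the receptor that activates latent TGF-beta, was at -2.41, -1.89 and -2.18 and at -0.10, -0.38 and 0.48 (4.47-fold higher, limma adjusted p = 0.0019). Itga3, a laminin receptor subunit, was at 0.64, 0.50 and 0.27 and at 1.54, 2.57 and 2.49 (3.31-fold higher, limma adjusted p = 0.00296). Syndecan 1 (Sdc1) was 3.93-fold higher, and Itga9 6.37-fold lower (limma adjusted p = 0.0138 and 0.00837). Itga2, a subunit of the main epithelial collagen I receptor, was at -5.06, -4.78 and -4.90 in normal Matrigel and at -4.99, -5.20 and -4.01 in tumor collagen I, with overlapping groups (0.18 ± 0.30, limma adjusted p = 0.742). Itga6, which pairs for laminin, was at 4.58, 4.70 and 4.92 and at 5.07, 4.83 and 4.79 (0.16 ± 0.17, limma adjusted p = 0.583). The count of higher members was 2 without normal Matrigel D, where Sdc1 was at an adjusted p of 0.056, and 3 without tumor collagen I C. Of 21 junction genes 2 were higher, a share near the 6.96% of all genes, and none was lower (median 0.48, or 0.29 without tumor collagen I C). The claudins Cldn1 and Cldn4, which seal tight junctions, were 2.45-fold and 3.94-fold higher (limma adjusted p = 0.0136 and 0.035). Neither was called without normal Matrigel D or tumor collagen I B, and Cldn4 also not without normal Matrigel B, tumor collagen I C or any normal collagen I array.

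Cytokine, chemokine and acute-phase genes were the list with the most higher members. Of 23 tested 16 were higher and 1 was lower, against 6.96% and 6.62% of all genes. The median was 2.30 (2.29 with one-sided genes at their bound), and the members ranged from -5.096 to 6.767. Between 13 and 16 were higher with each array left out, 12 after normexp correction and 15 under spike-in scaling. Cxcl5, a neutrophil attractant of epithelium, was at -2.25, -1.98 and -1.52 in normal Matrigel and at 0.69, 1.67 and 1.60 in tumor collagen I (9.41-fold higher, limma adjusted p = 4.5e-05). Cxcl2, of the same family, was well above background on no normal Matrigel array and was at least 7.17-fold higher. Complement C3 was at 3.75, 3.17 and 3.29 and at 6.20, 6.38 and 5.67 (6.41-fold higher, limma adjusted p = 4.41e-05). Csf3, the granulocyte growth factor, was at -3.11, -3.31 and -2.73 and at -1.37, -0.62 and -1.35 (3.83-fold higher, limma adjusted p = 0.000401). The 2 groups did not overlap for these 4 genes, as for 2451 of the 2480 genes called. Cxcl1 was at 0.35, 0.63 and 1.14 and at 1.5, 2.73 and 2.49 (2.90-fold higher, limma adjusted p = 0.0231), and lost its call without normal Matrigel A or B or tumor collagen I B or C (adjusted p = 0.0602 to 0.0806). Il23a, an interleukin subunit, was well above background in all tumor collagen I arrays and on no normal Matrigel array. Pglyrp1, which binds bacterial cell wall, was 7.57-fold higher. Beside these genes the leukocyte markers stood at means of -3.59 to -2.23 on the normal Matrigel arrays and -2.75 to -2.39 on the tumor collagen I arrays. The part of leukocytes in the result was not tested.

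The promoters of Cxcl1 and Cxcl2 are shown because each holds 2 matches to a form of the site of NF-kB, the factor of inflammatory signalling. It reads 3 G, any 2 bases, 3 T and 2 C. They are from RefSeq in GRCm38.p6, on the plus strand at chr5:90890995-90891244 and chr5:90903649-90903898, with matches at -89 and -71 and at -97 and -78 from the start, in capitals. The match of Cxcl1 at -89 lies on the other strand and reads as the reverse complement.
Cxcl1: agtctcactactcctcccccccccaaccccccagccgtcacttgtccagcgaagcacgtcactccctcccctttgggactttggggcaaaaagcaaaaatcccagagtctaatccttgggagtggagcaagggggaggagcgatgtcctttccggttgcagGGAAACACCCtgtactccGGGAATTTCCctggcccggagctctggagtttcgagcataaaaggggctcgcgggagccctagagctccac
Cxcl2: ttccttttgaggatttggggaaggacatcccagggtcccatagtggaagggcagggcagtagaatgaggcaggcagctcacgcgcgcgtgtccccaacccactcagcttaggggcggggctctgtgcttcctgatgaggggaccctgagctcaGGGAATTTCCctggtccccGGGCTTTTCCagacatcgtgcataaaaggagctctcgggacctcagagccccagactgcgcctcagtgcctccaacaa
On either strand these letters occur in 1.41% of all 32851 promoters, in 1.31% of those of genes tested, in 2.45% of those of called higher genes and in 0.951% of those of called lower genes. Of 17 cytokine list genes with a promoter 6 held them, and of 12 called higher 4 did.

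Interferon-stimulated genes were higher in part. Of 20 tested 5 were higher and none was lower (median 0.74), against 6.96% and 6.62% of all genes. Bst2, which tethers budding viruses, was at 4.15, 3.52 and 3.05 in normal Matrigel and at 5.92, 5.68 and 5.40 in tumor collagen I (4.26-fold higher, limma adjusted p = 0.00267). Isg15, a ubiquitin-like modifier, and Irf7, a factor of interferon induction, were 4.25-fold and 3.08-fold higher, and the nucleotide sensor Oas2 4.55-fold higher (limma adjusted p = 0.0263, 0.0323 and 0.0445). Bst2 kept its call with each array left out. Isg15, Irf7 and Oas2 each lost theirs without normal Matrigel B or D or tumor collagen I A or B. Oas2 lost it also without normal collagen I C, tumor collagen I C or any of the tumor Matrigel arrays. The count of higher members was 1 without normal Matrigel B or D or tumor collagen I A or B, 3 without normal collagen I C or tumor Matrigel A and 8 without normal Matrigel A, and 2 under spike-in scaling.

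Some targets of YAP, SRF and TGF-beta were higher. Of 21 tested 6 were higher and 1 was lower (median 0.61), against 6.96% and 6.62% of all genes. Ccn1, a matricellular protein and YAP target, was at 1.91, 1.41 and 1.38 and at 3.46, 4.42 and 5.08 (6.74-fold higher, limma adjusted p = 0.000553). Ccn2, its relative, was at 3.33, 4.06 and 3.64 and at 5.24, 5.57 and 6.38 (4.14-fold higher, limma adjusted p = 0.00361). Ankrd1, a nuclear ankyrin protein, was at -6.59, -4.70 and -3.14 and at -0.56, -0.59 and 0.22 (22.6-fold higher, limma adjusted p = 0.00265), and 2 of 3 normal Matrigel arrays measured it above background. Inhba, the activin subunit, was at 0.61, 0.38 and -0.62 and at 3.01, 3.40 and 5.58 (14.7-fold higher, limma adjusted p = 0.00134). All 4 separated the groups, as did 2451 of the 2480 genes called, and kept their calls with each array left out. Without tumor collagen I A 11 members were higher.

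The promoters of Ccn1 and Ankrd1 are shown for the letters GGAATG, bound by the TEAD partners of YAP. They are from RefSeq in GRCm38.p6, on the minus strand at chr3:145649986-145650235 with a match at -103, and on the minus strand at chr19:36119845-36120094 with matches at -210 and -123. Matches on either strand are in capitals, so the one of Ccn1 reads as the reverse complement.
Ccn1: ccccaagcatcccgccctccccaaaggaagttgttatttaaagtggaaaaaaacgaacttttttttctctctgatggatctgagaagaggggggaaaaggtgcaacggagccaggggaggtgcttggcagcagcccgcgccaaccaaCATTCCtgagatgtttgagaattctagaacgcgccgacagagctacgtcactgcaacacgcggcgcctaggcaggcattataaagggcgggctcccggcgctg
Ankrd1: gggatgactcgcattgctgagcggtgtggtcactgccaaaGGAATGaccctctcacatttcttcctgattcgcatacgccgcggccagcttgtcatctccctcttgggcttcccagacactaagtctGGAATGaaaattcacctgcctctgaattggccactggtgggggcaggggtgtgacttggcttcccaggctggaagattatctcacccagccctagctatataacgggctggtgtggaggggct
These letters occur in 12.6% of all 32851 promoters, in 10.9% of those of genes tested, in 11.1% of those of called higher genes and in 11.3% of those of called lower genes. Of 17 genes of the list with a promoter 8 held them, and of 4 called higher 2 did.

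Genes around FGF and ERK signalling split. Of 19 tested 4 were higher and 5 were lower (median 0.11), against 6.96% and 6.62% of all genes, in cultures that all held FGF2. The immediate early gene Fos was higher, as given above. The feedback inhibitors Spred1 and Spry1 were at 1.54, 1.81 and 2.25 and at 0.65, 0.77 and 1.51 in normal Matrigel. In tumor collagen I they were at 0.92, 0.64 and 0.95 and at -0.24, 0.08 and 0.16, 2.04-fold and 1.97-fold lower (limma adjusted p = 0.0108 and 0.0263). The receptor Fgfr2, which epithelium uses for stromal FGF signals, was at -0.30, -0.35 and -1.04 and at -1.54, -2.11 and -1.54 (2.25-fold lower, limma adjusted p = 0.0157). Fgfr2 was not called without normal Matrigel B or tumor collagen I B, nor Spry1 without normal Matrigel D or tumor collagen I A or B. Without tumor collagen I B 1 member was higher and 1 lower, without normal Matrigel B 2 and 2, without normal Matrigel D 0 and 2, without tumor collagen I C 1 and 3, and without normal collagen I B 3 and 3.

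In the Wnt list 3 of 17 were higher and 5 lower, against 6.96% and 6.62% of all genes. The median was 0.42, or 0.21 without normal Matrigel A, 0.22 without D and 0.28 without tumor collagen I C. Wnt7b, a ligand of mammary tumors, was at -1.12, -0.88 and -1.18 in normal Matrigel and at 0.52, 1.47 and 1.57 in tumor collagen I (4.74-fold higher, limma adjusted p = 0.000821). Sp5, a direct target of the canonical pathway, was well above background on no normal Matrigel array and at least 2.48-fold higher. Lgr5, a target and stem cell receptor, was at 0.33, 0.64 and -0.32 and at -3.35, -7.14 and -6.74 (62.4-fold lower, limma adjusted p = 0.0011), with 1 tumor array above background. Wnt5a, a ligand of the other branch, was 3.29-fold lower (limma adjusted p = 0.00794), with 2 tumor arrays above background. Its log2 difference ranged from -2.116 to -0.088 under other settings. The 2 canonical targets named thus lay on opposite sides. The count of lower members was 2 without normal Matrigel B and 3 without normal Matrigel A or D.

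Differentiation genes did not move as a group. Of 11 milk protein and secretory genes 2 were higher and 1 was lower (median -0.04), against 6.96% and 6.62% of all genes. The lipid droplet protein Plin2 was at 5.34, 5.16 and 5.20 and at 6.18, 6.50 and 7.07 (2.56-fold higher, limma adjusted p = 0.00393). Lactoferrin (Ltf) was at -0.03, 1.18 and 0.04 and at 3.73, 4.95 and 1.25 (7.50-fold higher, limma adjusted p = 0.0291). Lalba, which directs lactose synthesis, was at 3.72, 4.54 and 4.75 and at 2.66, 1.66 and -1.30 (10.1-fold lower, limma adjusted p = 0.0257). Ltf lost its call without normal Matrigel A or D or tumor collagen I A or B, and Lalba without normal Matrigel B or D. Lower members were 2 without normal Matrigel A and 3 without tumor collagen I A. Of 15 keratinization genes 3 were higher and 4 lower, beside the same shares of all genes (median 1.45, or 0.79 without tumor collagen I C). The envelope precursor Sprr1b was at least 13.3-fold higher, and its tumor levels of -2.97, -4.94 and 0.73 were highest in mouse C. Involucrin (Ivl) was at 0.10, 0.64 and -1.34 and at -5.23, -7.63 and -2.35 (29.2-fold lower, limma adjusted p = 0.0179), with 2 tumor arrays above background. Krt4 and Krt15, keratins of stratified epithelium, were 8.82-fold and 6.44-fold lower (limma adjusted p = 0.0019 and 0.0119). Only 1 tumor array measured Krt4 above background, and its log2 difference ranged from -3.653 to -0.505 under other settings. The mean over the list was 1.97 on tumor collagen I C and -0.43 and -1.13 on A and B. Without C 1 member was higher, without normal Matrigel B 1 was higher and 1 lower, without normal Matrigel D none was higher, and without tumor collagen I A 5 were. Sprr1b was at an adjusted p of 0.0511 without normal Matrigel D, and Ivl and Krt15 at 0.0671 and 0.0504 without normal Matrigel B.

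Hypoxia genes leaned higher without a stable count. Of 17 tested 3 were higher and none was lower, against 6.96% and 6.62% of all genes. The median was 1.04 (0.51 without normal Matrigel D). The groups did not overlap for 2 of the 17, against 32.2% of all genes. Vegfa, the growth factor of vessels, was at 1.84, 0.92 and 0.02 in normal Matrigel and at 2.37, 2.97 and 3.57 in tumor collagen I (4.12-fold higher, limma adjusted p = 0.0115). The vasodilator peptide Adm was at -0.09, -2.36 and -2.75 and at -0.11, 1.45 and 1.83, so normal Matrigel A met tumor collagen I A (6.91-fold higher, limma adjusted p = 0.02). The oxidase Ero1a, which forms disulfide bonds, was 3.29-fold higher (limma adjusted p = 0.0269). Normal Matrigel A stood apart in this list, with a mean of 3.89 against 2.66 and 2.00 for B and D. The tumor arrays were at 3.40, 4.25 and 4.15. Without normal Matrigel A 13 of the 17 genes were called higher, and without normal Matrigel B or D or tumor collagen I B or C 1 was. Adm and Ero1a lost their calls in those 4 cases. Of 20 stress response genes 2 were higher, a share near the 6.96% of all genes, and none was lower (median -0.02). The metabolic stress sensor Sesn2 was at 2.49 to 2.61 and at 3.38, 3.95 and 3.38 (2.02-fold higher, limma adjusted p = 0.0039). Atf3, an early stress factor, was 2.54-fold higher, a call lost without normal Matrigel B or D or tumor collagen I B.

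Some genes of DNA replication and mitosis were lower, while few of sterol synthesis were called. Of 26 DNA replication and mitosis genes 5 were lower and none was higher, against 6.62% and 6.96% of all genes. The median was -0.84, or -0.37 without tumor collagen I C, and 14 genes were at an unadjusted p under 0.05 by limma. The spindle motor Kif11 was at -1.29, -1.28 and -1.77 and at -2.38, -3.31 and -3.96 (3.41-fold lower, limma adjusted p = 0.0157). The proliferation antigen Mki67 was at 4.17, 4.12 and 3.68 and at 3.67, 1.99 and 1.81 (2.82-fold lower, limma adjusted p = 0.0334), so tumor collagen I A was at the level of normal Matrigel D. No member was called without normal Matrigel B or tumor collagen I C. Without normal Matrigel A or D or normal collagen I C 1 was, without normal collagen I A or B 2, and without tumor collagen I B or tumor Matrigel A 3. Of 20 cholesterol synthesis genes 2 were lower and none was higher, a share near that of all genes, and the median of -0.16 lay between -0.40 and 0.41 under other settings. The isomerase Idi1 was at 3.59, 3.59 and 3.77 and at 2.40, 2.16 and 2.53 (2.44-fold lower, limma adjusted p = 0.00397).

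The remaining 2 groups show how far the difference followed the tissue or the gel. Tumor collagen I minus normal Matrigel is exactly the tumor minus normal difference averaged over the gels plus the collagen I minus Matrigel difference averaged over the tissues. The opposite diagonal, tumor Matrigel minus normal collagen I, is the first part minus the second, and so tests which of them is larger. It uses other arrays, though some of the same mice and the same estimate of the spread. The tumor Matrigel arrays were the dimmest, with a 75th percentile of 462.7 ± 96.3 (SD, n = 3) and 57.4 ± 1.11% of spots well above background. The normal collagen I arrays were at 1075.9 ± 126.4 and 67.6 ± 3.58%. Spike-in probes were at -0.06 ± 0.24 relative to the 75th percentile in tumor Matrigel and at -2.15 ± 0.13 to -1.67 ± 0.28 in the other 3 groups. The opposite diagonal called 9510 genes (52.0%) by limma.

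Most genes called between tumor collagen I and normal Matrigel kept their direction when the gels were exchanged. Of the 2480, 1774 (71.5%, or 18.7% of the calls of the opposite diagonal) passed in the opposite diagonal in the same direction, so their tissue part was the larger. For 82 genes (3.31%) it passed in the other direction, so their gel part was the larger, and 624 (25.2%) did not pass. Among the higher genes these counts were 846, 57 and 368, and among the lower 928, 25 and 256. The tissue part was larger in size for 89.8% of the called genes, with a median of 1.40 against 0.33 for the gel part. These genes were called on the sum of the same 2 parts. Among the 9510 genes called in the opposite diagonal the tissue part was larger for 77.6%. The share over all genes tested is not given here. These counts moved with the scale. Under spike-in scaling, which shifts the median of the opposite diagonal from 0.10 to -1.99, they were 1294, 797 and 389, and after normexp correction 1314, 190 and 976.

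In the opposite diagonal 10 of 11 endothelial, 7 of 9 hormone-sensing and 7 of 13 basal and myoepithelial markers were lower, against 26.5% of all genes, and 1, of the basal list, was higher. Of the 23 cytokine list genes 15 were higher there and 5 lower, against 25.5% and 26.5% of all genes. Cdh5 had a tissue part of -5.71 and a gel part of -1.21. Dmbt1 was at 2.02, 2.62 and 3.66 in normal collagen I and at -4.74, -4.48 and -4.48 in tumor Matrigel, with a tissue part of -7.64 ± 0.40 and a gel part of -0.31. Myh11 had a tissue part of -6.42 and a gel part of 0.38, and Tbx3 of -4.94 and 0.12. Vegfa followed the tissue as well, at 2.37 and -0.33, and was at 3.04 to 3.77 in tumor Matrigel and 2.37 to 3.57 in tumor collagen I, which overlap. Cxcl5 and C3 had tissue parts of 2.65 and 2.08 and gel parts of 0.58 and 0.60. For each of these genes the opposite diagonal passed in the same direction.

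For some genes, among them Mmp13 and Mmp10, both parts ran the same way and neither was larger by the test. Of the 27 proteases 7 passed the opposite diagonal higher and 7 lower, shares near the 25.5% and 26.5% of all genes. Mmp14 had parts of opposite sign, -0.59 and 0.61. Mmp13 was at -0.37, 0.93 and 0.94 in normal collagen I and at -0.24, 0.80 and 0.10 in tumor Matrigel, between the 2 extreme groups. Its tissue part was 2.88 ± 0.50 and its gel part 3.16, and the opposite diagonal was at -0.28 ± 0.70 (limma adjusted p = 0.755). Irg1 was also intermediate in both, at -2.94 to -1.91 and -1.57 to -1.0, with parts of 3.54 and 2.57 and an opposite diagonal of 0.98 in the same direction (limma adjusted p = 0.0293). Mmp10 had parts of 2.42 and 1.5, Ccn1 of 1.58 and 1.17, Ccn2 of 0.94 and 1.11 and Ankrd1 of 2.02 and 2.48. For these 4 genes the opposite diagonal did not pass (limma adjusted p = 0.266, 0.341, 0.692 and 0.624). Ankrd1 was low in normal Matrigel and at similar levels elsewhere, at -1.47 to 0.19 in normal collagen I, -1.34 to -0.52 in tumor Matrigel and -0.59 to 0.22 in tumor collagen I.

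**Figure D4:**
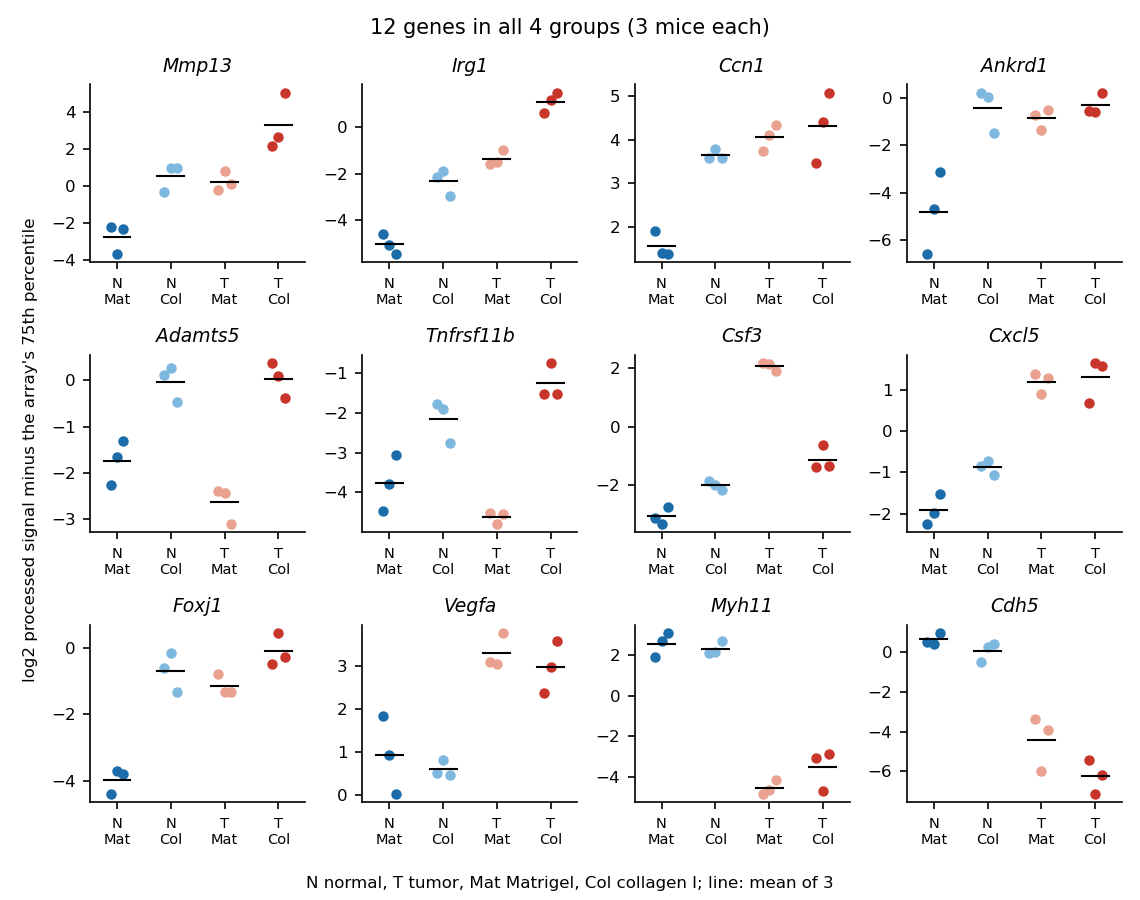
Log2 level (processed signal minus the array's 75th percentile) of 12 genes in normal (N) and tumor (T) organoids in Matrigel (Mat) or collagen I (Col). Points are 3 mice and lines their means. Mmp13 and Irg1 step up from normal Matrigel over both intermediate groups to tumor collagen I, Adamts5 and Tnfrsf11b follow the gel, and Myh11 and Cdh5 follow the tissue.

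For a small set the gel part was the larger. Adamts5 was at 0.12, 0.28 and -0.47 in normal collagen I and at -2.38, -2.42 and -3.10 in tumor Matrigel. Its gel part was 2.19 and its tissue part -0.42, with the opposite diagonal at -2.61 (limma adjusted p = 0.000186). Tnfrsf11b, the decoy receptor osteoprotegerin, was at -4.47, -3.78 and -3.07 in normal Matrigel and -1.54, -0.74 and -1.52 in tumor collagen I, with a gel part of 2.49 and a tissue part of 0.02. Fzd9, a Wnt receptor, was lower in collagen I in either tissue, with a gel part of -2.07 and a tissue part of -0.19. The heme transporter family member Flvcr2 and the dopamine receptor Drd4 had gel parts of -1.90 and -1.88. Flvcr2 means were -0.318 in normal Matrigel, -1.08 in normal collagen I, 0.804 in tumor Matrigel and -2.235 in tumor collagen I. For Flvcr2, Fzd9 and Tnfrsf11b tumor minus normal ran one way in Matrigel and the other way in collagen I. Their small tissue parts thus average opposite differences. The interactions of these genes did not pass (limma adjusted p = 0.0517, 0.0646 and 0.0872). For the 4 genes other than Drd4 the call of tumor collagen I against normal Matrigel held with each array left out, while Drd4 lost it without normal Matrigel B or tumor collagen I A or B.

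**Figure D5:**
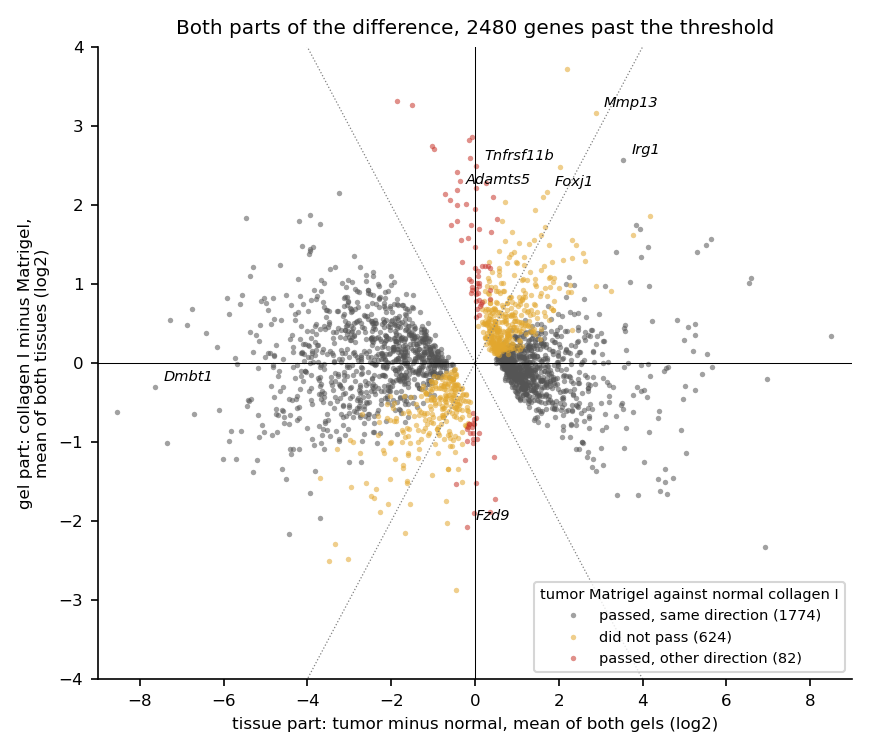
Tissue part (horizontal, log2) against gel part (vertical, log2) of the 2480 genes called between tumor collagen I and normal Matrigel, coloured by the opposite diagonal. Dotted lines mark parts of equal size. The 1774 grey genes passed it in the same direction and lie along the tissue axis, the 82 red genes passed it in the other direction and lie along the gel axis.

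Whether the difference departed from the sum of the 2 single changes was tested as the tissue by gel interaction. It called 481 genes (2.63%) by limma, 142 of them among the 2480. The count ranged from 12 to 2086 with single arrays left out, at its lowest without normal collagen I B and at its highest without normal Matrigel A, and from 4 to 9673 under the other settings. Csf3 was the clearest case. It was at -1.84, -1.97 and -2.15 in normal collagen I and at 2.20, 2.15 and 1.92 in tumor Matrigel, so tumor collagen I lay below tumor Matrigel although above both normal groups. Its interaction was -4.27 (limma adjusted p = 0.000677). Idi1 was at 2.25 to 2.85 in normal collagen I and at 0.67 to 1.29 in tumor Matrigel, and its interaction was 2.66 (limma adjusted p = 0.00816). Foxj1 was at -1.34 to -0.14 in normal collagen I and at -1.34 to -0.78 in tumor Matrigel. All 3 of those groups stood well over normal Matrigel, and its interaction was -2.22 (limma adjusted p = 0.047).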

How the data were processed

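Total RNA was amplified, labelled with Cy3 and read on 1-colour Agilent arrays. The deposited processed signal is an intensity, background-subtracted by Feature Extraction 9.5 per the file headers (9.1 per the submitters' processing notes). The deposited log2 values in a table of the authors correlated at 0.9924 to 0.9999 with the arrays, and their normalization and centring are not given in the sources used here. Control spots and 52 to 139 outlier spots per array were left out. The log2 signal was scaled to the array's 75th percentile and spots of a probe were averaged. A probe was kept if all arrays of some group measured it well above background and each of the 4 groups had 2 or more values. A gene is the kept probe with the highest mean (26606 probes, 18274 genes). RefSeq symbols were matched by accession for 22951 of 41174 probes, and the files' names were kept otherwise. Coordinates in the files are of build mm7.

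The 12 arrays of batch 2, in 4 groups of 3, were fitted together with limma 3.58.1 in R 4.3.3, tested on simulated data, with Benjamini-Hochberg adjustment over all genes at 0.05. The normal Matrigel B sample has arrays of 2 batches, of which that of batch 2 was used. With 3 arrays against 3 an exact permutation test cannot go below 0.1, so none was used, and the number of arrays limits the precision. A one-sided gene, measured above background in 1 group only, has a lower bound against the lowest signal well above background, computed on each array. The 24 gene lists (418 genes, 398 tested) and the genes named were chosen with earlier results of these data known. The named genes are 130 of the 151 given by a rule plus Cxcl1, and 1 gene of the rule is not reported here. The rule takes the largest differences per direction, measured in both groups or in 1, among called genes without overlap of the 2 groups. It adds up to 4 called members per list (or the 2 brightest), 16 fixed genes, and the largest called interactions and gel-led differences. Alternatives changed the background correction, scaling, filter, probe rule, batch, variance model, blocks, threshold and arrays.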

Additional observations from a re-analysis of the deposited data

Results flagged for a closer look

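For 13 named genes the effect of tissue differed between the 2 gels by the interaction test of limma, computed as the tumor minus normal difference in collagen I minus that in Matrigel, on the log2 scale. It was negative for Csf3 at -4.27 (adjusted p = 0.000677), Kng1 at -5.33 (adjusted p = 0.01), Foxa2 at -4.40 (adjusted p = 0.0414) and Il23a at -3.43 (adjusted p = 0.0371). It was negative as well for Asic2 at -2.82 (adjusted p = 0.0295), Foxj1 at -2.22 (adjusted p = 0.047), Wnt7b at -1.94 (adjusted p = 0.0443), Col18a1 at -1.92 (adjusted p = 0.0376), Orm1 at -1.80 (adjusted p = 0.0388) and Prom1 at -1.59 (adjusted p = 0.0265). It was positive for Idi1 at 2.66 (adjusted p = 0.00816), Ctnnd2 at 2.57 (adjusted p = 0.00506) and Sncaip at 1.89 (adjusted p = 0.0346). Ctnnd2, a catenin of neurons, was at -4.43, -4.61 and -5.07 in tumor collagen I, against -0.28 to -0.69 in both normal groups. In tumor Matrigel its signal read -7.09, -7.21 and -6.96, but no array there measured it well above background. The same held for Sncaip in tumor Matrigel and for Asic2 in tumor collagen I. Kng1, Orm1 and Il23a were well above background on no normal Matrigel array, and Foxa2 on 1. The tumor Matrigel arrays, on which each interaction rests in part, had 57.4 ± 1.11% of spots well above background, and their part in these values was not tested.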

How the results depend on the processing

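Against 2480 genes called between tumor collagen I and normal Matrigel, normexp correction gave 1360, spike-in scaling 1424, the 6 arrays alone 1196, a 2-fold threshold 434 and slide as a fixed block 3. Leaving out single arrays gave 1396 to 2684. The shared letter as a replicate block gave 1158, but it does not pair the groups, which are of different animals (deviations of same-lettered arrays correlated at -0.282 and -0.116). For the opposite diagonal (9510) spike-in scaling gave 16381, the 2-fold threshold 1860, the replicate block 9226 and single arrays left out 7775 to 9819. The interaction (481) gave 10 with normexp, 203 with quantile normalization, 142 with the authors' deposited values, 9673 with spike-in scaling, 59 with no filter, 2222 with batch 1 averaged in, 1001 with trended robust variances, 3444 with array weights, 33 with the letter as a replicate block, 1712 and 1672 with mouse or slide as a random block, 1348 with slide fixed and 4 at the 2-fold threshold. Leaving out single arrays gave 12 to 2086. The cause of these moves was not tested. Of 115 called genes named, 83 kept their call with every array left out, 2 kept it under every alternative and 0 changed sign. Signs changed only for uncalled genes. With quantile normalization, the authors' deposited values and spike-in scaling in turn, Mmp14 was at -0.215, -0.165 and -0.222, Itga6 at -0.068, -0.048 and -0.082, and Krt18 at -0.084, 0.00 and -0.095. Krt8 was at -0.085 and -0.105 with quantile and spike-in scaling, Mmp14 at -0.02 with normexp, Itga2 at -0.062 with spike-in scaling and -0.006 with batch 1, and Lyz2 at 0.269 with array weights. With slide fixed Cdh1 was at 0.223, Krt5 at 0.819, Snai1 at 0.363 and Itga6 at -0.13, and Cdh1 was at 0.067 with slide random and 0.021 with the replicate block. With arrays left out Cdh1 ranged from -0.458 to 0.31, Krt5 from -1.03 to 0.321, Twist1 from -0.303 to 1.117, Mmp14 from -0.085 to 0.16 and Itga2 from -0.177 to 0.415. List counts of higher and lower members also moved with normexp, to 1 and 2 for keratinization, 2 and 1 for FGF and ERK and 2 lower for the Wnt and the DNA replication lists. With spike-in scaling they moved to 1 and 2 for FGF and ERK, 3 higher for integrins and 0 for stress response genes. A second probe of a called gene ran the same way without passing for Adamts5 (1.31, adjusted p = 0.072 by limma), Zeb2 (-1.57, 0.0994), Col6a2 (-2.0, 0.116), Vegfa (2.24, 0.0637), Cldn1 (0.43, 0.219), Sesn2 (0.45, 0.229) and Ehf (0.46, 0.306).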
